A study of Mus musculus with 2 samples.

Results

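The renin-angiotensin system was represented by 9 genes, chosen by symbol: *Agt*, *Ren1*, *Ace*, *Enpep*, *Anpep*, *Mme*, *Agtr1a*, *Mas1* and *Agtrap*. All 9 were among the 19829 genes listed in the table, and all 9 passed the filter on low values. Messenger RNA was sequenced from whole left kidneys of male C57BL/6 mice aged 14 weeks, with 1 library from a wild-type littermate (WT+AKI, the WT kidney) and 1 from a mouse carrying an *Inmt* transgene in the proximal tubule (TG+AKI, the TG kidney). *Inmt* encodes indolethylamine N-methyltransferase, and the promoter that drives the transgene was not given in the sources used here. Per the study's methods, both mice first received high-dose voclosporin, a calcineurin inhibitor, at 30 mg/kg by intraperitoneal injection, and both then underwent bilateral renal ischemia–reperfusion, which causes acute kidney injury (AKI). The labels are not in accord on 2 points: the treatment field states that nothing was given, and the title of the TG+AKI sample also calls the mouse a conditional knockout. The study's texts also differ on the time between reperfusion and harvest. No sham-operated, untreated or drug-free kidney was analysed here, so, per the study's methods, every value below belongs to an injured and drug-treated kidney.

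Renin, released by juxtaglomerular cells of the afferent arteriole, cuts angiotensinogen to angiotensin I, and angiotensin-converting enzyme turns this into angiotensin II. Angiotensin II constricts vessels and promotes sodium retention through its type 1 receptor, while membrane peptidases trim it to shorter peptides, some of which act through other receptors such as Mas. The kidney holds its own set of these components, and the proximal tubule both makes angiotensinogen and carries several of the peptidases on its brush border.

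Values are the normalized values of the deposited table, which equal reads per 1000000 of the scaled library. The libraries held 38542764 reads (WT+AKI) and 36427421 reads (TG+AKI), so that 1 read was worth 0.0236 and 0.0302. With 1 library per group no difference has a replicate check, and no test of genotype was possible. Ratios are TG+AKI over WT+AKI with exact 95% (Clopper-Pearson) intervals from the recovered reads; they compare the libraries, not the genotypes, and cover counting error only. A gene was compared if its value reached 1 in at least 1 library, and was called at a ratio of at least 2 or at most 0.5. *Inmt* itself had a value of 10.4 in the WT kidney and 402.8 in the TG kidney, 38.5-fold higher (35.1 to 42.5), the direction that the genotype label gives.

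Among the 9 members, 2 were at least 2-fold higher in the TG kidney and 1 was at least 2-fold lower. *Ace* and *Agtr1a* were the higher pair, against a background of 7.35% of the 14997 compared genes. *Agt* was the lower one, against a background of 11.0%. The same shares are the background for every gene list below with the deposited scaling. The interval lay above a ratio of 1 for 5 members, lay below it for 2 and included it for 2. At this depth that separates little, since the interval excluded 1 in 75.0% of all compared genes. The median log2 ratio of the members was 0.58, and that of all compared genes was −0.02 with quartiles of −0.43 and 0.36. The members differed in direction: substrate and renin were lower in the TG kidney, whereas converting enzyme, 2 of 3 other peptidases, the angiotensin II receptor and its associated protein were higher.

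The choice of scaling moved every ratio by the same amount. With both libraries scaled to equal totals, the log2 ratios shifted by −0.27, and with the median ratio of well-expressed genes set to 1 they shifted by −0.14. No member was then at least 2-fold higher, whereas *Agt* remained at least 2-fold lower. The split over all genes also changed, from 1103 higher and 1645 lower to 694 higher and 2372 lower at equal totals. Relative to the median of all genes, a comparison that no scaling alters, *Ace* was higher by 1.14 on the log2 scale, *Agtr1a* by 1.03, *Mme* by 0.84, *Agtrap* by 0.71 and *Enpep* by 0.59. On that relative scale *Anpep* stood at 0.016, *Ren1* at −0.33, *Mas1* at −0.37 and *Agt* at −1.18.

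**Figure D1:**
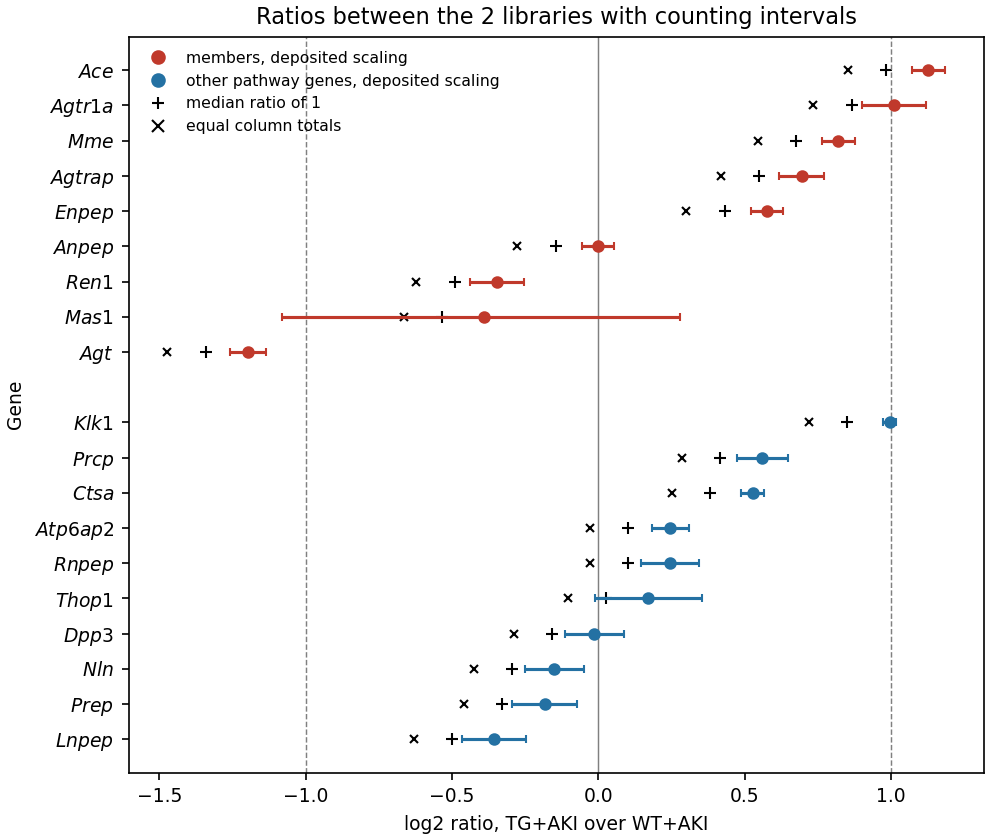
Log2 ratios of TG+AKI over WT+AKI for the 9 members (red) and the other compared pathway genes named in the text (blue), with 95% counting intervals, and crosses for 2 other scalings; dashed lines mark 2-fold. *Ace* (1.13) and *Agtr1a* (1.01) lie past the right line with the deposited scaling and inside it with the other 2, while *Agt* (−1.20) lies past the left line under all 3.

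The promoters of *Agt* and *Ace*, the called members of opposite direction for which the RefSeq promoter table has an entry, are shown with that of *Anpep*, whose ratio was nearest to 1. The stretches run from 50 to 21 bases before the first RefSeq start (GRCm38.p6), 5′ to 3′ on the gene's strand, and capitals mark TATAAA or its reverse complement TTTATA.
*Agt*, chr8:124569727-124569756, minus strand: atccatctccaccccttgagTATAAAtaag
*Ace*, chr11:105967898-105967927, plus strand: gaggcggtggtggctgggtTTTATAatccg
*Anpep*, chr7:79848231-79848260, minus strand: gggggcgggtgtagttcgggcggagcggtg
*Agt* carried TATAAA from position −30, and *Ace* carried TTTATA from position −31. *Ren1* had TATAAA from position −29; its stretch overlaps an annotated exon and is not printed. The first listed starts of *Enpep*, *Anpep*, *Mme*, *Mas1* and *Agtrap* had neither word in this window, and *Agtr1a* had no entry. Of 32851 promoter stretches of 30 bases, 919 (2.80%) held the word on either strand. The window was shortened after matches in a longer one of 100 bases had been seen; there *Enpep* also held TTTATA, at −52, and the share of all promoters was 5.66%. A match is a match of letters only and was shared by members that differed in opposite directions.

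Angiotensinogen, encoded by *Agt* (gene ID 11606; GRCm38 chromosome 8, 124556534 to 124569706, minus strand), is the sole substrate of renin. Its normalized value was 197 in the WT kidney (8335 reads) and 85.8 in the TG kidney (2840 reads). It was therefore 2.29-fold lower in the TG kidney (2.20 to 2.39), a log2 ratio of −1.20, which placed it at percentile 8.57 of all compared genes. Of the 9 members *Agt* had the highest value in the WT kidney and the largest ratio in either direction.

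Since the liver is the main source of circulating angiotensinogen, transcripts of hepatocytes were examined beside it. Of 6 liver markers, 5 were listed, and their summed value was 67.6 in the WT kidney and 120.9 in the TG kidney. The markers did not share a direction. *Ttr* (22.8 and 75.5) made up most of the difference between the sums, and *Alb*, the defining marker, had 34 and 274 reads, values of 0.802 and 8.27. *Serpina1c* had the direction of *Agt*, with 36.7 and 27.9, *Apoh* had 6.30 and 8.30, and *Apoa1* had 42 and 33 reads, a ratio whose interval included 1. Their part in the result for *Agt* was not tested.

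Renin is encoded by *Ren1* (gene ID 19701; chromosome 1, 133350510 to 133360325, plus strand), and the second renin gene of some mouse strains, *Ren2*, was not among the listed genes. The value of *Ren1* was 59.9 in the WT kidney (2541 reads) and 47.1 in the TG kidney (1561 reads). The ratio was 0.786 (0.738 to 0.838), lower in the TG kidney beyond counting error but well inside the 2-fold limit. Substrate and enzyme were thus both lower, though unequally. There were 3.28 *Agt* reads for each *Ren1* read in the WT kidney and 1.82 in the TG kidney, a change of 0.555 (0.514 to 0.598), and this quotient does not depend on the scaling. It is 1 of 8 quotients computed, whose pairs were picked after the values had been seen and whose intervals use the normal approximation of the log odds ratio. In whole-kidney RNA, fewer cells of a type and less RNA per cell cannot be told apart.

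Angiotensin-converting enzyme, encoded by *Ace* (gene ID 11421; chromosome 11, 105967945 to 105989964, plus strand), forms angiotensin II and degrades bradykinin. Its value was 94.5 in the WT kidney (4007 reads) and 206 in the TG kidney (6833 reads). *Ace* was higher in the TG kidney by a ratio of 2.18 (2.10 to 2.27), at percentile 93.9 of all genes, the highest ratio among the members. An antisense transcript, Gm11651, shares 2.10% of the 100-base words of *Ace*, and it was not stated whether counting used the strand.

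The quotient of *Ace* to *Agt* reads went from 0.481 to 2.41, 5.0-fold higher (4.72 to 5.30), the largest change among the 8 quotients. Enzyme and substrate lay on opposite sides of a ratio of 1 under every scaling run.

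Among the angiotensin peptidases, aminopeptidase A, encoded by *Enpep* (gene ID 13809; chromosome 3, 129269175 to 129332720, minus strand), turns angiotensin II into angiotensin III. *Enpep* had a value of 122 in the WT kidney (5182 reads) and 182.1 in the TG kidney (6032 reads), a ratio of 1.49 (1.44 to 1.55). Aminopeptidase N, encoded by *Anpep* (gene ID 16790; chromosome 7, 79821803 to 79861059, minus strand), takes the next step to angiotensin IV. *Anpep* had a value of 145.5 in the WT kidney (6169 reads) and 145.3 in the TG kidney (4813 reads), a ratio of 0.999 (0.962 to 1.04). It was the member least different between the libraries, and its sign turned with DESeq2 size factors, to a log2 ratio of 0.015.

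Neprilysin, encoded by *Mme* (gene ID 17380; chromosome 3, 63241537 to 63386030, plus strand), cuts angiotensin I to the fragment that acts on Mas, and also breaks down natriuretic peptides. *Mme* had a value of 103.5 in the WT kidney (4389 reads) and 182.6 in the TG kidney (6047 reads), a ratio of 1.76 (1.70 to 1.83). None of the 3 peptidases passed the 2-fold limit, yet they differed among themselves. *Enpep* reads per *Anpep* read were 1.49-fold higher in the TG kidney (1.42 to 1.57), and *Mme* reads per *Anpep* read were 1.77-fold higher (1.67 to 1.86). The first aminopeptidase of the chain and neprilysin were therefore higher relative to the second aminopeptidase.

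The receptor *Agtr1a* (gene ID 11607; chromosome 13, 30336441 to 30382867, plus strand) is the main angiotensin II receptor of the mouse kidney. Its value was 26.9 in the WT kidney (1140 reads) and 54.1 in the TG kidney (1792 reads). The ratio of 2.01 (1.87 to 2.17) stood just past the 2-fold limit, and its interval crossed that limit. Adding 1 to each value before taking logs gave a log2 ratio of 0.98, inside the limit. *Agtr1a* reads per *Ren1* read were 2.56-fold higher in the TG kidney (2.32 to 2.82).

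*Agtrap* (gene ID 11610; chromosome 4, 148077061 to 148088031, minus strand) encodes a protein that binds the tail of this receptor and promotes its removal from the cell surface. Its value was 59.0 in the WT kidney (2501 reads) and 95.5 in the TG kidney (3161 reads), a ratio of 1.62 (1.53 to 1.71). Receptor and associated protein were both higher, the receptor more so. *Agtr1a* reads per *Agtrap* read were 1.24-fold higher in the TG kidney (1.14 to 1.36).

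*Mas1* (gene ID 17171; chromosome 17, 12841079 to 12868143, minus strand) encodes the receptor of the vasodilator branch and was the least expressed member. Its value was 1.23 in the WT kidney (52 reads) and 0.936 in the TG kidney (31 reads). The ratio was 0.763 (0.473 to 1.21), and no difference was detectable at this depth. The antisense gene *Airn*, which overlaps *Mas1*, had values of 1.77 and 5.92, and without knowledge of the strand setting their reads cannot be told apart.

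**Figure D2:**
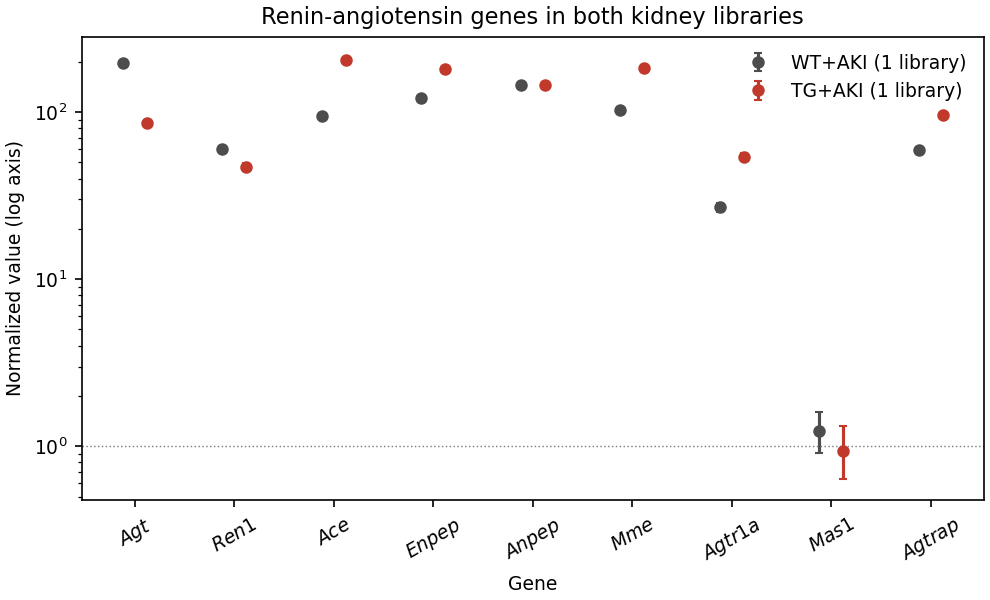
Normalized values (log axis) of the 9 members in the WT+AKI library (grey) and the TG+AKI library (red), with exact 95% counting intervals, mostly smaller than the points. *Agt* stands at 197 and 85.8, *Ace* stands at 94.5 and 206, and *Mas1* lies near the dotted filter value of 1.

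Levels of different genes were compared per kilobase of the longest annotated transcript. In WT+AKI, *Agt* led with 104.0 per kb, 2.71-fold above *Anpep* (2.62 to 2.80). *Anpep* (38.3 per kb) and *Ren1* (37.6 per kb) did not differ beyond counting error, and they were followed by *Enpep* (29.2), *Ace* (19.3) and *Agtrap* (14.8). *Mme* (12.9) and *Agtr1a* (12.2) did not differ either, and *Mas1* was last at 0.511 per kb.

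The order in the TG kidney was another one. *Agt* (45.4 per kb) and *Enpep* (43.6 per kb) did not differ beyond counting error, and *Ace* followed at 42.1, up from the fifth place in the WT kidney to the third. *Anpep* (38.3) and *Ren1* (29.6) came next. *Agtr1a* (24.6) and *Agtrap* (23.9) were indistinguishable, *Mme* stood at 22.7, and *Mas1* was again last at 0.390 per kb. Of the neighbours in this order, *Enpep* and *Ace* differed by a ratio of only 1.04, with an interval of 1.0 to 1.07. Apart from *Mas1*, the members spanned a narrower range per kb in the TG kidney than in the WT kidney. The places of neighbours depend on the length used. With the length of all merged exons, *Ren1* (36.2) ranked above *Anpep* (35.2) and *Agtr1a* (9.65) above *Mme* (8.97) in the WT kidney. In the TG kidney *Ace* (39.0) then ranked above *Enpep* (38.7) and *Agtrap* (22.5) above *Agtr1a* (19.4).

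**Figure D3:**
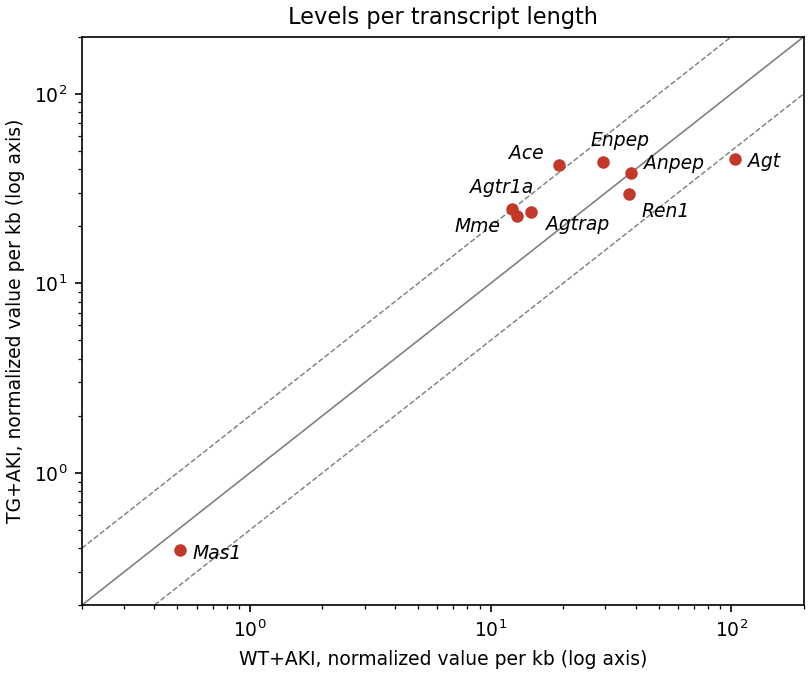
Normalized value per kilobase of the longest transcript in WT+AKI (x) and TG+AKI (y), both on log axes, 1 point per member; the solid line marks equality and the dashed lines 2-fold. *Agt* lies beyond the lower line (104.0 and 45.4), *Ace* beyond the upper one (19.3 and 42.1) and *Agtr1a* at the upper one (12.2 and 24.6). *Mas1* lies far below the rest.

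Of 18 other genes of the pathway, 12 were listed, and 11 passed the filter. None of the 11 was called in either direction, their median log2 ratio was 0.17, and the interval lay above 1 for 5 and below 1 for 3. At equal totals the median turned to −0.10. The list held the alternative routes to and from angiotensin II, and its members were compared in the same way.

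Tissue kallikrein, *Klk1*, the protease that releases kinins, came nearest to the limit. It had 626 in the WT kidney and 1248 in the TG kidney, a ratio of 1.99 (1.96 to 2.02). With DESeq2 size factors it was the 1 gene of the list past 2-fold, where 1148 of all genes were higher. *Klk1* shares 6.08% of its 100-base words with other kallikrein genes, so its reads may be split. The carboxypeptidases *Prcp* and *Ctsa*, which shorten angiotensin peptides from the other end, had log2 ratios of 0.56 and 0.53. The prorenin receptor *Atp6ap2* had 96.0 and 113.9, a log2 ratio of 0.25, and the aminopeptidase B gene *Rnpep* also stood at 0.25. Genes on the other strand share 11.6% of the words of *Ctsa* and 7.99% of those of *Rnpep*.

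The other compared pathway genes were not higher in the TG kidney beyond counting error. The endopeptidase *Thop1* had a log2 ratio of 0.17 and *Dpp3*, a dipeptidyl peptidase, one of −0.01, both with intervals that included a ratio of 1. *Nln* (−0.15), *Prep* (−0.18) and *Lnpep* (−0.36), the last of which encodes the binding site of angiotensin IV, were lower in the TG kidney beyond counting error. *Agtr2*, the other angiotensin II receptor, had 2 and 6 reads and was not compared. *Agtr1b*, *Cma1*, *Cpa3*, *Ctsg*, *Mrgprd* and *Ren2* had no row and were not analysed here. Every listed gene had reads in both libraries, so a missing row does not show that both lacked reads.

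Renin cells and the macula densa, the tubular cells that signal to them, were covered by 19 genes, of which 18 were listed and 17 compared. The list had 2 called higher and 3 called lower, where 7.35% and 11.0% of all compared genes were. Its median log2 ratio was 0.06 and, at equal totals, −0.22. The interval lay above a ratio of 1 for 8 genes, below it for 5 and included it for 4. The 8 were *Nos1*, *Foxd1*, *Abcc9* (log2 ratio 0.93), *Akr1b7* (0.71), *Adcy5* (0.67), *Gja4* (0.47), *Kcnj8* (0.37) and *Creb1* (0.15). Of these only *Nos1* and *Foxd1* were called. The 5 were *Ptgs2*, *Ptger4*, *Adora1*, *Ptges* (−0.61) and *Rbpj* (−0.49), the last 2 not called. Intervals of *Gja5* (0.06), *Npr1* (0.05), *Adcy6* (0.04) and *Gjc1* (−0.02) included a ratio of 1. *Ptgs2*, the inducible cyclooxygenase whose prostaglandins stimulate renin release, had 298 reads in the WT kidney and 21 in the TG kidney, values of 7.03 and 0.634. It was 11.1-fold lower in the TG kidney (7.12 to 18.2). *Ptger4*, a prostaglandin receptor on renin cells, was 3.57-fold lower (2.84 to 4.53), and *Adora1*, the adenosine receptor that restrains renin release, was 3.08-fold lower (2.57 to 3.71).

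Both genes called higher rested on few reads. Both passed the filter of 1 through the TG kidney only, with WT values of 0.283 (*Nos1*) and 0.755 (*Foxd1*). Their entry into the comparison was thus tied to the direction of their call. *Ptgs2*, called lower, likewise passed through the WT kidney only. *Nos1*, the nitric oxide synthase of the macula densa, had 12 and 35 reads, a ratio of 3.73 (1.89 to 7.90). *Foxd1*, a factor of the stromal progenitors of renin cells, had 32 and 50 reads, a ratio of 2.0 (1.26 to 3.22). This ratio lay on the limit, and at equal totals or with the median ratio set to 1 the list kept 1 gene called higher. Over all genes 694 and 869 were higher in those settings. Genes on the other strand overlap *Adora1* and *Ptger4*, so their reads are uncertain in the absence of the strand setting.

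Of 14 genes whose products couple to or restrain angiotensin receptors, all 14 were compared, and 3 were called lower and none higher. Over all compared genes 11.0% were called lower and 7.35% higher. The median log2 ratio of the 14 was −0.08. *Rgs2*, which switches off the G protein used by this receptor, had 32.4 in the WT kidney and 14.2 in the TG kidney and was 2.29-fold lower (2.06 to 2.54). *Rgs4*, of the same family, was 2.50-fold lower (1.75 to 3.64). *Zbtb16*, a transcription factor known to bind the other angiotensin II receptor, was 3.75-fold lower (3.42 to 4.12). *Agtr1a* reads per *Rgs2* read were 4.60-fold higher in the TG kidney (4.05 to 5.23). At equal totals, 5 of the 14 were at least 2-fold lower, as were 2372 of all genes.

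The members that sit on the brush border were set beside other peptidases of this membrane. Of 10 such genes, 9 were compared, 6 were at least 2-fold higher in the TG kidney and none was lower, with a median log2 ratio of 1.30. Over all compared genes 7.35% were at least 2-fold higher and 11.0% lower. The members on this membrane had log2 ratios of 1.13 (*Ace*), 0.82 (*Mme*), 0.58 (*Enpep*) and −0.0017 (*Anpep*). At equal totals 5 of the 9 were still at least 2-fold higher, as were 694 of all genes. The dipeptidase *Cndp1* had 13.3 and 100.9, a ratio of 7.60 (6.95 to 8.33). The meprins *Mep1b* and *Mep1a* had ratios of 2.76 (2.63 to 2.91) and 2.04 (2.01 to 2.06). *Ggt1*, which cleaves glutathione, stood at 2.71 (2.66 to 2.76), *Dpep1* at 2.66 (2.55 to 2.78) and *Xpnpep2*, an aminopeptidase that degrades bradykinin, at 2.46 (2.15 to 2.82). *Dpp4* and *Tmprss2*, also on this list, were not called.

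Markers of kidney cell types differed between the libraries as well. All 10 proximal tubule markers were at least 2-fold higher in the TG kidney, with log2 ratios from 1.0 to 2.94 and a summed value of 5947 in the WT kidney and 21878 in the TG kidney. At equal totals 7 of the 10 were at least 2-fold higher, as were 694 of all genes. All 7 markers of injured proximal tubule were at least 2-fold lower, with log2 ratios from −2.16 to −10.1. The proximal tubule markers had the direction of *Ace*, *Enpep*, *Mme* and the 6 other brush border peptidases called higher. It was not the direction of every brush border gene: the intervals of *Anpep* and of 2 of the 9 other compared peptidases included a ratio of 1. The injury markers had the direction of *Agt*, and the part of either marker set in the results was not tested.

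The cells around the vessels moved less. Of 9 smooth muscle and pericyte markers, 8 were compared and 1, *Notch3*, was called, lower in the TG kidney by 2.61-fold (2.36 to 2.90). Their summed value was 459 in the WT kidney and 387 in the TG kidney. These markers did not share a direction, with intervals above a ratio of 1 for 2, below it for 4 and including it for 2. The sum had the direction of *Ren1* and the opposite of *Agtr1a*, and the part of these markers in the results was not tested. The medians of the endothelial and podocyte markers were 0.07 and −0.06, with no gene of either list called. The mesangial list holds *Ren1* and *Agtr1a* themselves and had a median of −0.08. Of 6 adrenal cortex markers only *Star* was listed, at 2.15 and 1.45, and of 6 mast cell markers only *Kit* was, at 16.3 and 20.6.

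**Figure D4:**
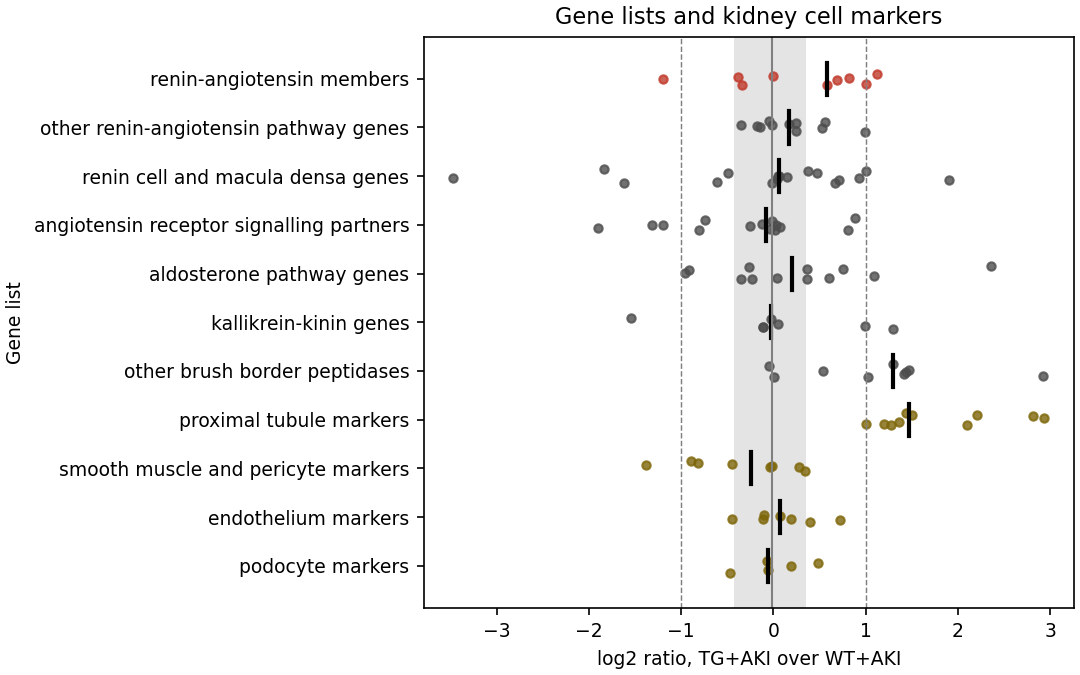
Log2 ratios of TG+AKI over WT+AKI for the compared genes of each list, 1 point per gene, with a black bar at the list median (red, members; dark grey, other lists; ochre, cell markers); the grey band and line give the quartiles (−0.43 to 0.36) and median of all genes and dashed lines mark 2-fold. The members (red) are spread from −1.20 to 1.13 with a median of 0.58, between the other pathway genes (0.17) and the other brush border peptidases (1.30).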

How the data were processed

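The deposited table gives 1 normalized read count per gene and library, which the authors made from gene counts divided by a library factor. Per the labels and the study's methods, TruSeq stranded libraries were sequenced on a NovaSeq with reads of 100 bp. The submitters' processing notes name STAR 2.7.3a, HTSeq, DESeq2, edgeR, Cufflinks 2.2.1 and mm10; the annotation and strand setting were not given in the sources used here.

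Every value was a whole multiple of the worth of 1 read (100% of values, tolerance 1e-06), so reads were recovered by division. No listed value was below 1 read, so the shares over all genes leave out any gene with reads in only 1 library. The scaling matched factors of the trimmed mean of M-values (1.10 and 0.909) from edgeR 4.0.16 (R 4.3.3). DESeq2-type size factors, recomputed as medians of ratios, were 1.14 and 0.879. At the filter of 1, a gene had 42.4 reads in the WT library or 33.1 in the TG library, and 3 reads were the floor. The deposited unit being a signal, no count model was fitted, and 1 library per group allowed no test. The analysis ran in Python 3.11.15 (scipy 1.17.1, numpy 2.4.6, matplotlib 3.10.9, pandas 2.3.3). The procedures were tested on simulated reads that held counting error only, so the simulation does not cover variation between mice.

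The members, the lists and the filter of 1 without a pseudocount were chosen with earlier results of these data known; an earlier processing had used a filter of 10 and a pseudocount of 1, which were kept as alternatives. Named were all members, every listed gene of the pathway list except 1 that is counted but not reported here, and up to 6 genes of each other list past 2-fold whose interval excluded 1; markers were mainly summarised. *Dpp4*, *Tmprss2*, *Kng1*, *Kng2*, *Fkbp5*, *Per1* and the single markers given with values were named outside the rule, after their values were seen. So were the uncalled renin cell and macula densa genes. No likeness of pattern was computed over 2 libraries. Coordinates, lengths and 100-base words shared with other genes are from GENCODE M21 (GRCm38); promoter stretches are from RefSeq. Of the 19829 gene IDs, 19780 (99.8%) were in RefSeq.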

Additional observations from a re-analysis of the deposited data

How the results depend on the processing

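No paired analysis was possible because each group held 1 library, and leaving out a library would have ended the comparison. At equal column totals the genes at least 2-fold higher numbered 694, the members at least 2-fold higher 0, the median log2 ratio of the members 0.30 and that of the other pathway genes −0.10, a reversal. With the median ratio of well-expressed genes at 1, members at least 2-fold higher numbered 0, all genes 869, and the member median was 0.43. A pseudocount of 1 left 1 member at least 2-fold higher, and 784 of all genes. Without a filter 1685 genes were higher. With a filter of 10, which *Mas1* does not pass, 629 genes were higher and 790 lower, and the member median was 0.63. *Anpep* reversed to 0.015 with DESeq2 size factors. In every setting run, 1 member was at least 2-fold lower. The shift under another scaling is the same for every gene. All 9 members kept a log2 ratio within counting error of the reported one with DESeq2 size factors, *Anpep* with a change of sign, and 1 did with equal totals. Depth limits *Mas1* above all. No setting addresses variation between mice, which was not measured.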

Other observations

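The pathway of aldosterone, the adrenal steroid that angiotensin II releases, was covered by 12 genes, all compared. With the deposited scaling 2 were at least 2-fold higher in the TG kidney and none was lower, where 7.35% and 11.0% of all compared genes were. The median log2 ratio was 0.20 and turned to −0.07 at equal totals. The interval lay above a ratio of 1 for 6 genes and below it for 5. *Slc12a3*, the thiazide-sensitive sodium chloride cotransporter of the distal convoluted tubule, had a value of 98.5 in the WT kidney and 507 in the TG kidney, a ratio of 5.15 (4.97 to 5.33). *Kcnj1*, a potassium channel of the distal nephron, had 63.5 and 135.4, a ratio of 2.13 (2.03 to 2.24). At equal totals 1 gene of the list was at least 2-fold higher and 2 were at least 2-fold lower. Over all genes 694 were higher and 2372 lower in that setting. The 2 lower genes of the list were *Fkbp5* and *Per1*, whose log2 ratios with the deposited scaling were −0.96 and −0.91.

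The kallikrein-kinin system, whose kinins angiotensin-converting enzyme degrades, was covered by 9 genes, of which 7 were listed and compared. *Bdkrb2*, the constitutive bradykinin receptor, had 209 reads in the WT kidney and 56 in the TG kidney, values of 4.93 and 1.69, and was 2.92-fold lower (2.16 to 3.99). *Xpnpep2* was the gene called higher, and the median log2 ratio was −0.03. The kininogens *Kng1* and *Kng2*, which give rise to the kinins, had ratios of 0.926 (0.728 to 1.18) and 0.979 (0.950 to 1.01), and they share 5.80% and 5.69% of their 100-base words with each other.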
